A study of Arabidopsis thaliana with 12 samples.

Results

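The comparison described here is between rosettes of Arabidopsis thaliana Col-0 that grew with live slurry of MSU soil (HO-MSU, holoxenic) and rosettes that received the same slurry after autoclaving (AX-MSU, axenic). Its 6 libraries were chosen by their labels from the 12 libraries of the series, 3 per group, and the other 6 belong to the same design with Malaka soil, which some labels call Laurel. All 17313 nuclear genes that could be tested are covered. The MSU soil is an agricultural soil of Michigan State University. Plants of every group grew in FlowPots, gnotobiotic pots of peat substrate that hold no microorganisms other than those added, and were 21 days old. All were wild type, and the killed slurry was the mock inoculation of the AX plants. RNA of a library came from 8 plants that shared a microbox (a closed container) and stood in 4 pots, pooled, so the spread between single plants is not seen.

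Plants sense microorganisms at the cell surface with receptor kinases and receptor-like proteins that bind conserved microbial patterns such as flg22, a peptide of flagellin. The receptors act with co-receptor kinases and pass the signal on through cytoplasmic kinases and WRKY transcription factors. The response, pattern-triggered immunity (PTI), includes secreted enzymes and defence metabolites made from tryptophan, and many of its genes are nearly silent in unstimulated leaves.

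The 6 libraries held between 13229393 and 22710086 counts. Organelle genes took between 51.0% and 55.9% of them and nuclear ribosomal RNA genes between 11.1% and 18.6%, which left between 4124673 and 6951695 counts on the other nuclear genes of a library. Expression is given as CPM, the counts relative to the TMM-scaled library size, and 3 counts in a library stood for between 0.134 and 0.226 CPM. Pearson's r of log2 CPM was between 0.974 and 0.978 for replicates and between 0.953 and 0.967 across the groups. The 5 leaf markers summed to between 6520 and 6854 CPM in HO-MSU and between 7631 and 7869 CPM in AX-MSU. The root marker PYK10, which leaves also express, had 168, 141 and 133 CPM in HO-MSU and 130, 138 and 118 CPM in AX-MSU, a log2FC of 0.20 that did not pass the test. The other 6 root markers summed to between 0.367 and 1.83 CPM in HO-MSU and between 0.0705 and 0.552 CPM in AX-MSU, and the 7 flower and seed markers to between 0.535 and 1.59 CPM and between 0.0705 and 0.358 CPM. Leaf markers were thus far above the markers of other organs in all 6 libraries, and the latter were at the level of a few counts, PYK10 excepted. In bulk RNA, fewer cells of a type and less RNA per cell cannot be told apart.

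Of the 17313 nuclear genes tested, 250 were differentially expressed genes (DEGs) with higher and 62 with lower transcript levels in HO-MSU relative to AX-MSU rosettes, which is 1.44% and 0.358% of those tested. Genes were called in the quasi-likelihood test of edgeR where the FDR, adjusted by Benjamini-Hochberg, was under 0.05 and the |log2FC| was 1 or more. Without the fold threshold the directions were even, with 572 genes higher (3.3%) and 576 lower (3.33%), and the median log2FC of all nuclear genes tested was 0.00. A log2FC of 2 was reached by 128 of the higher DEGs and one of 4 by 42, whereas 14 of the lower DEGs reached -2 and 0 reached -4. The higher DEGs were also genes of low starting level. Their median was 0.648 CPM in AX-MSU and 3.19 CPM in HO-MSU, and 150 of them lay under 1 CPM in AX-MSU. The lower DEGs had a median of 3.69 CPM in AX-MSU and 1.62 CPM in HO-MSU. All HO-MSU libraries lay above all AX-MSU libraries at 246 of the 250 higher DEGs and below them at 51 of the 62 lower DEGs, and 12.3% and 12.6% of all nuclear genes tested were so separated. Leaving out AX-MSU replicate 2 took the lower DEGs from 62 to 33. With libraries scaled by total counts alone the median of all nuclear genes moved to -0.17, and the calls became 183 higher and 113 lower, so that 61.8% of DEGs were higher in place of 80.1%.

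**Figure D1:**
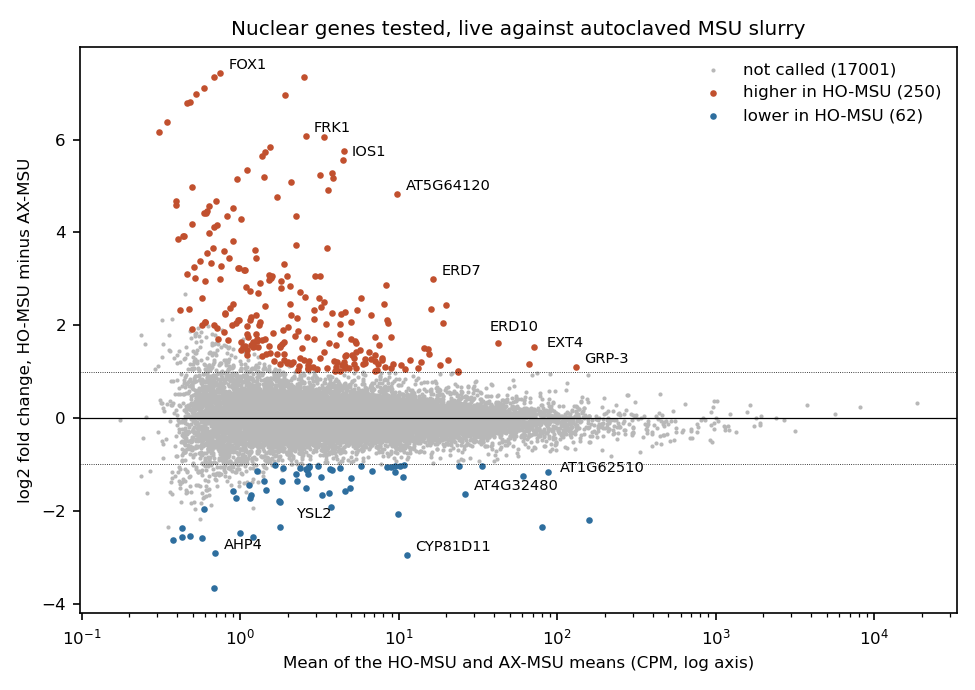
Each point is a nuclear gene, with its mean level over both groups in CPM on a log axis and its log2 fold change, HO-MSU minus AX-MSU; red points are the 250 higher DEGs, blue points the 62 lower DEGs, grey points the other genes, and dotted lines mark a log2FC of 1 and -1. The red points reach 7.44 and lie mostly at low levels, while the blue points end at -3.65; the fitted value of a gene with 0 counts in a group depends on the prior count of the fit.

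Several transcripts that mark PTI rose, some of them from 0 or a few counts. Of 16 listed markers 13 could be tested, and 7 were higher and 0 lower DEGs. The median log2FC of those tested was 1.42, against 0.00 for all nuclear genes. FRK1, IOS1, FOX1, MYB15 and WRKY30 of the list were named by the paper as lower in axenic plants of this series. The count and the median were thus partly fixed by the choice of the list. FRK1, a receptor-like kinase used as a reporter of flg22 perception, lies on chromosome 2 at 8326049 to 8329944 (minus strand). It stood at 5.13, 3.21 and 6.94 CPM in the HO-MSU libraries and at 0, 0.0691 and 0.141 CPM in the AX-MSU libraries. Every HO-MSU library was above every AX-MSU library, with 248 counts against 3, a ratio of 72.2 (95% interval from the counts alone, 24.4 to 352) and a log2FC of 6.07 ± 0.52 (SE, edgeR FDR = 8.73e-09). FOX1 (AT1G26380), a berberine bridge enzyme-like oxidase of indolic defence metabolism, lies on chromosome 1 at 9126737 to 9128568 (minus strand) and had 1.89, 0.714 and 1.89 CPM in HO-MSU. It had 0 counts in all AX-MSU libraries, and against a floor of 3 counts over that group it was at least 21-fold higher in HO-MSU (edgeR FDR = 5.39e-05). IOS1, a malectin-like receptor kinase that associates with the flagellin receptor complex, had 12, 5.71 and 8.37 CPM in HO-MSU and 0.0596, 0.276 and 0.211 CPM in AX-MSU, a log2FC of 5.55 ± 0.45 (SE, edgeR FDR = 1.18e-09). WRKY53, a transcription factor of early defence, rose from a mean of 3.76 ± 1.11 to 11.3 ± 1.3 CPM (SD, n = 3 each). WRKY30 and MYB15, also defence transcription factors, rose by a log2FC of 4.56 and 3.85. WRKY22 and WRKY33 of the same list had a log2FC of 0.06 and 0.30 and did not pass the test.

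The 250 bases before the annotated start of FOX1 and FRK1 are shown because they hold 4 and 3 copies of the core of the W-box, TTGAC, the element that WRKY factors bind. They come from RefSeq (TAIR10.1, minus strand) and are written 5′ to 3′ in the direction of transcription, with TTGAC and its reverse complement GTCAA in capitals.
FOX1, chr1:9128569-9128818: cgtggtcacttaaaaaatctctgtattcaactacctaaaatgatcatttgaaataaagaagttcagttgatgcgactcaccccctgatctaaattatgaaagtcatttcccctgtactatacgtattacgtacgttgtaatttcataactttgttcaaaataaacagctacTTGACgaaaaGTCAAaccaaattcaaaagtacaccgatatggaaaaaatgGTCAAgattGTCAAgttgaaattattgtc
FRK1, chr2:8329945-8330194: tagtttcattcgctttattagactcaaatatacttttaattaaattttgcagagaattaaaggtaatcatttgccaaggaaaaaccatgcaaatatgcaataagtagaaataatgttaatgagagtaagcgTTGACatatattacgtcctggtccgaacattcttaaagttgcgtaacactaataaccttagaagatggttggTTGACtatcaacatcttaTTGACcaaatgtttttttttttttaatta
A match to this core was found in the same window of 170 of the 246 protein-coding higher DEGs (69.1%), 29 of the 60 protein-coding lower DEGs (48.3%) and 12329 of all 27443 protein-coding nuclear genes (44.9%). At least 3 matches were found in 35 of the higher DEGs (14.2%) and 927 of all genes (3.38%). In the nearest 150 bases the shares with a match were 54.5% and 30.7%. The core shared by abscisic acid response elements and G-boxes, ACGTG, was found in 28.5% of higher DEGs, 43.3% of lower DEGs and 22.9% of all genes. The as-1 type core TGACG was found in 25.2%, 30.0% and 18.6%, and the evening element of clock-controlled genes in 3.25%, 3.33% and 2.36%. Both strands were searched, TTGAC and TGACG can overlap, and binding was not measured.

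**Figure D2:**
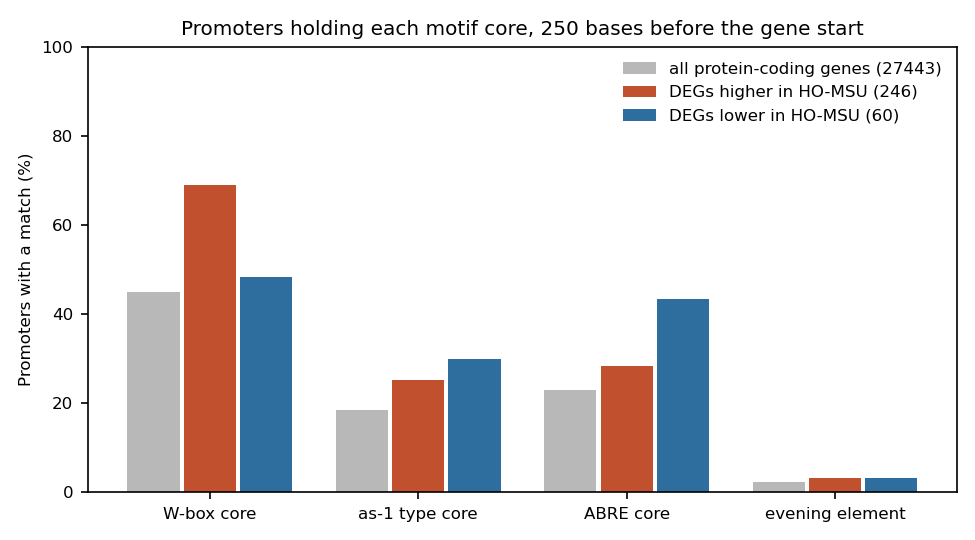
Bars give the percentage of promoters, taken as the 250 bases before the gene start, that hold at least 1 match to each motif core, for all 27443 protein-coding nuclear genes, the 246 protein-coding higher DEGs and the 60 protein-coding lower DEGs. The W-box core was found in 69.1% of the higher DEGs and in 44.9% of all genes.

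Several receptors and their partners rose, mostly by smaller factors. Of 21 tested members of the list 9 passed an FDR of 0.05 upward and 0 downward, against 3.3% and 3.33% of all nuclear genes tested. Of these 9, 3 were DEGs (RLP23, SOBIR1 and BIR1), and the median log2FC of the list was 0.34. SOBIR1, the kinase that partners receptor-like proteins, had 30.1, 23.1 and 33.6 CPM in HO-MSU and 10.8, 12.3 and 13.1 CPM in AX-MSU, a log2FC of 1.25 ± 0.13 (SE, edgeR FDR = 1.47e-07). SOBIR1 overlaps a gene on the other strand over 667 of its 2084 exonic bases, and whether strand was used in counting is not given in the sources used here. BKK1, a close homologue of the co-receptor BAK1, had 29.9, 28.5 and 25.7 CPM against 15, 11.8 and 17.2 CPM, and 25.2% of its exonic windows of 50 bases occur elsewhere in the genome. BIR1, a kinase that restrains BAK1, rose from 3.5 ± 0.634 to 9.53 ± 1.87 CPM (SD, n = 3 each). FLS2, the flg22 receptor itself, had 15.8 ± 1.32 CPM in HO-MSU and 10.6 ± 3.11 CPM in AX-MSU, a log2FC of 0.58 (edgeR FDR = 0.0129 with all libraries and 0.118 without AX-MSU replicate 2). The cytoplasmic kinase BIK1 and the oxidase RBOHD, which makes the reactive oxygen burst, rose by a log2FC of 0.80 and 0.53. The MAP kinases MPK3, MPK4 and MPK6 had a log2FC of -0.10, 0.07 and 0.07 and did not pass the test.

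Calls in the receptor families were mostly upward, as were those over all nuclear genes tested, of which 1.44% were higher and 0.358% lower DEGs. Cysteine-rich receptor-like kinases had 5 higher and 0 lower DEGs among 27 tested and a median log2FC of 0.47. CRK5 of this family had 3.48, 2.81 and 4.37 CPM in HO-MSU and 0.775, 0.138 and 0.282 CPM in AX-MSU. Receptor-like proteins had 8 higher DEGs of 38, among them RLP23, the receptor of a peptide from microbial NLP toxins, at 1.71, 1.07 and 3.02 CPM against 0.179, 0.414 and 0 CPM. Among 129 leucine-rich repeat kinases 9 were higher and 0 lower DEGs, 21 passed the FDR upward and 3 downward, and the median of the family was 0.06. AT1G51790 and AT1G51890, neighbours of IOS1 on chromosome 1, had 2 and 2 counts over AX-MSU and 147 and 138 over HO-MSU. Of 110 intracellular NLR receptors tested 85 had a positive log2FC, 18 passed the FDR upward and 0 downward, and 3 were DEGs. Among all nuclear genes tested 50.3% had a positive log2FC, 3.3% passed the FDR upward and 1.44% were higher DEGs. The NLR gene AT5G41750 was a higher DEG, with 7.51, 5.49 and 11.4 CPM in HO-MSU against 2.74, 2.69 and 2.11 CPM in AX-MSU. Lectin receptor kinases had 3 higher DEGs of 51.

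Among transcription factors the WRKY family had 7 higher and 0 lower DEGs of 38 tested and a median log2FC of 0.35. WRKY18, which acts with its relative WRKY60 in defence, had 7.64, 4.91 and 9.05 CPM in HO-MSU and 2.03, 0.898 and 1.48 CPM in AX-MSU. WRKY60 itself had 5.62, 4.24 and 6.33 CPM against 0.716, 1.52 and 0.846 CPM. WRKY48 and WRKY47 rose by a log2FC of 2.6 and 1.37. Of 40 MYB factors 2 were higher and 1 lower DEGs, of 46 AP2/ERF factors 3 and 1, and of 27 NAC factors 2 and 0. Their median log2FC was 0.20, 0.09 and -0.004 in the same order. Over all nuclear genes tested, 1.44% were higher and 0.358% lower DEGs. The NAC calls, NAC036 and NAC047, depended on single libraries (edgeR FDR = 0.0227 with all libraries and 0.125 without HO-MSU replicate 1 for the former, and for the latter 0.162 on leaving out HO-MSU replicate 3).

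Small secreted proteins and enzymes of the apoplast were among the genes with the largest fold changes. Of the 12 genes with the largest log2FC at which the groups did not overlap, 8 had 0 counts in all AX-MSU libraries. Besides FOX1 these were the lipid-transfer-like AT4G12500 (at least 20.4-fold higher), the C1-domain proteins AT2G17740 (17.2-fold) and AT2G44380 (14-fold), and the peroxidase AT5G64100 (16-fold). The others were AT2G45220 of the pectin methylesterase inhibitor family (at least 13.7-fold higher), the VQ protein AT4G20000 (10.5-fold) and the uncharacterized AT1G36622 (8.73-fold). AZI3 (AT4G12490), a lipid-transfer-like protein, had 7.64, 2.23 and 5.13 CPM in HO-MSU and 1 count in AX-MSU. Its neighbour on chromosome 4 AZI1, known from resistance primed by azelaic acid, had 8.68, 3.75 and 9.65 CPM in HO-MSU and 0, 0.483 and 0.0705 CPM in AX-MSU, a log2FC of 5.29 ± 0.47 (SE, edgeR FDR = 7.93e-09). LURP1, which acts in defence against downy mildew, had 6.05, 1.38 and 12.4 CPM in HO-MSU and at most 0.179 CPM in AX-MSU. HO-MSU replicate 2 was the lowest of its group at FRK1, IOS1, FOX1, AZI1, AZI3 and LURP1. It lay above each AX-MSU library at IOS1 and AZI1. At FRK1, FOX1, AZI3 and LURP1, which are among the 12 genes above, the rule of no overlap fixed this beforehand.

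**Figure D3:**
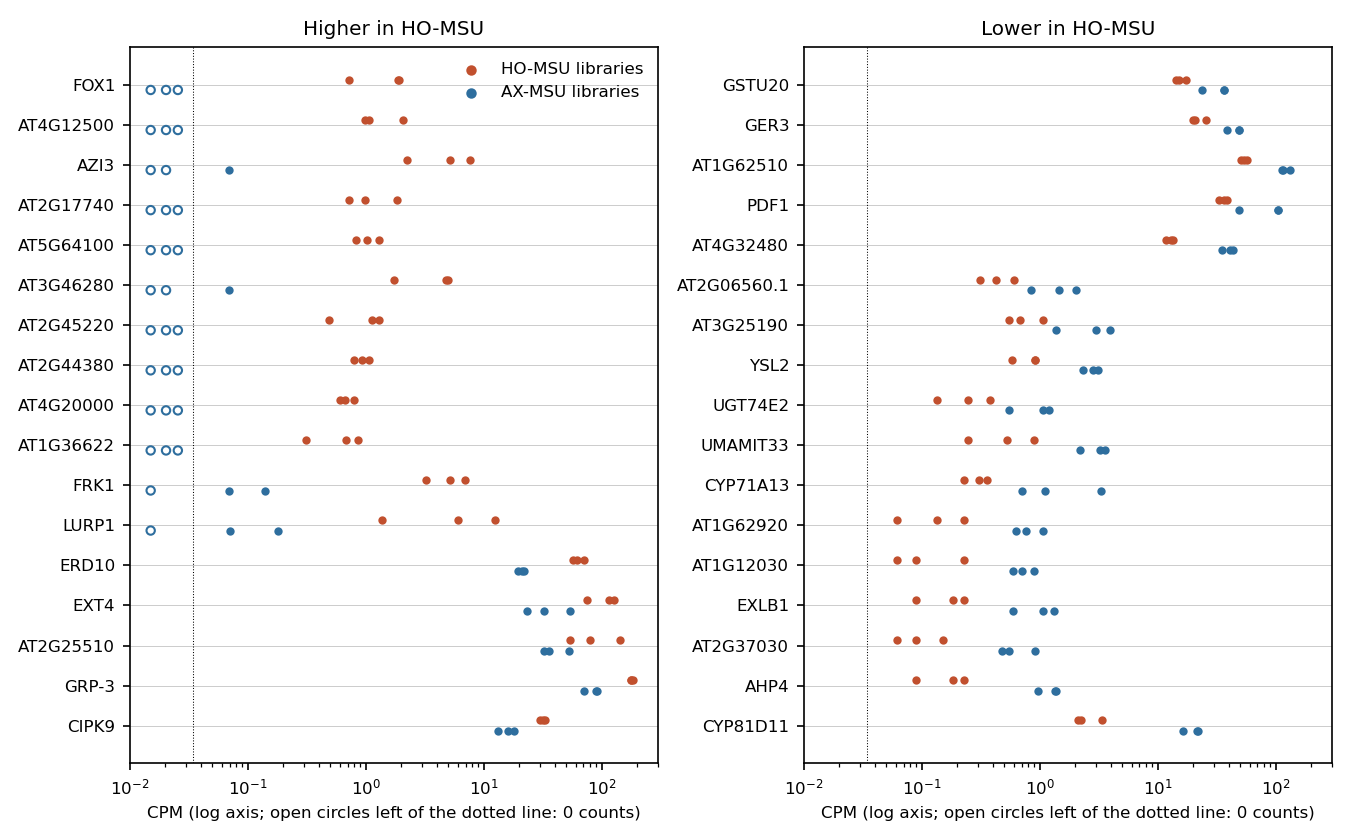
Points are CPM in single libraries on a log axis (red, HO-MSU; blue, AX-MSU; open circles, 0 counts) for DEGs at which the groups did not overlap, namely those of largest fold change (12 per direction) and of highest level (5 per direction). Of the 12 genes with the largest log2FC, 8 have open circles in every AX-MSU library.

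Counted by family, berberine bridge enzyme-like oxidases had 6 higher and 1 lower DEGs of 14 tested, class III peroxidases 5 and 1 of 24, and chitinases 2 and 0 of 11. Pectin methylesterases and their inhibitors had 3 and 0 of 33, and glutathione transferases 2 and 1 of 35. Over all nuclear genes tested, 1.44% were higher and 0.358% lower DEGs. The median log2FC was 0.56 for the berberine bridge enzyme-like oxidases and 0.67 for the chitinases. It was -0.09 for the peroxidases, -0.04 for the pectin family and -0.03 for the glutathione transferases. The oxidase gene AT1G30720 had 6.42, 5.49 and 7.62 CPM in HO-MSU and 0.656, 0.483 and 0.352 CPM in AX-MSU. The peroxidase AT5G64120 had 26, 13 and 17.9 CPM in HO-MSU and 0.775, 0.276 and 0.916 CPM in AX-MSU, a log2FC of 4.82 ± 0.29 (SE, edgeR FDR = 2.98e-12). The chitinase AT2G43620 had 9.23, 5.13 and 8.22 CPM against 0.0596, 0.207 and 0.352 CPM. The groups did not overlap at these genes, and HO-MSU was so separated above AX-MSU at 12.3% of the nuclear genes tested. GSTF6 and GSTF7, glutathione transferases that respond to pathogens, rose by a log2FC of 3.06 and 3.07, and 10.3% and 10.04% of their windows occur elsewhere, so that their reads may be shared. Lipid-transfer and hybrid proline-rich proteins moved in both directions, with 5 higher and 5 lower DEGs of 40.

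Of 17 tested genes of camalexin and indole glucosinolates, defence compounds made from tryptophan, 4 were higher DEGs (FOX1, CYP71A12, IGMT2 and CYP81F2). CYP71A13 was the 1 lower DEG, 9 genes passed the FDR upward, and the median log2FC was 0.63. Over all nuclear genes tested, 1.44% were higher DEGs and 3.3% passed the FDR upward. PEN3, a transporter of indolic defence compounds at the plasma membrane, had 207, 172 and 238 CPM in HO-MSU and 112, 110.01 and 105 CPM in AX-MSU, a log2FC of 0.92 ± 0.11 (SE, edgeR FDR = 7.14e-07). IGMT1, which methylates indole glucosinolates, had 14.2, 13.4 and 14.3 CPM against 8.17, 8.22 and 6.98 CPM. MYB34, a regulator of indole glucosinolates, rose by a log2FC of 0.80 (edgeR FDR = 0.0138 with all libraries and 0.0842 without AX-MSU replicate 1). IGMT2, a relative of IGMT1, rose by a log2FC of 2.13, and 36.7% of its windows occur elsewhere. CYP71A12, an enzyme of indolic carbonyl nitriles, rose from a mean of 0.023 to 0.971 CPM. Of the genes that make tryptophan itself 0 of 9 passed the test, with a median of 0.36. CYP71A13, an enzyme of camalexin synthesis, had 0.305, 0.357 and 0.226 CPM in HO-MSU and 3.28, 1.1 and 0.705 CPM in AX-MSU (edgeR FDR = 0.0116 with all libraries and 0.218 without AX-MSU replicate 1). It overlaps AT2G30766 on the other strand over 330 exonic bases. AT2G30766 had 0.183, 0.624 and 0.151 CPM in HO-MSU and 3.58, 2.21 and 0.493 CPM in AX-MSU, so that AX-MSU replicate 1 was the highest library at both genes, and their reads may not be told apart.

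The hormone lists had 1 and 2 higher DEGs and 0 lower ones. Over all nuclear genes tested, 1.44% were higher and 0.358% lower DEGs. Of 24 listed genes of salicylic acid and systemic resistance 14 could be tested. A positive log2FC was found at 11 of them, against 50.3% of all nuclear genes tested, and the median was 0.32. The 1 DEG was CBP60G, a transcription factor of salicylic acid synthesis, with 8.8, 5.17 and 6.11 CPM in HO-MSU and 3.22, 1.93 and 2.54 CPM in AX-MSU. ICS1, the enzyme of that synthesis, had a log2FC of 0.12 and did not pass the test. PR1, the classical marker of salicylic acid responses, was below the filter on low counts with 24 counts in HO-MSU and 0 in AX-MSU, at least 6.98-fold higher against the floor and with no test. Of 26 listed jasmonate genes 20 could be tested and 2 were higher DEGs, the lipoxygenase LOX4 (8.38 ± 0.601 against 3.04 ± 1.12 CPM, SD, n = 3 each) and the repressor JAZ1 (6.24 ± 0.42 against 2.93 ± 0.33 CPM). VSP1 and VSP2, reporters of jasmonate, had a log2FC of -0.44 and -0.25 and did not pass the test. CYP707A3, which breaks down abscisic acid, rose by a log2FC of 1.57 ± 0.26 (SE, edgeR FDR = 0.000187).

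A set of abundant transcripts rose by moderate factors. The 5 most abundant higher DEGs without overlap were GRP-3, EXT4, AT2G25510, ERD10 and CIPK9. GRP-3, a glycine-rich wall protein, had 178, 176 and 184 CPM in HO-MSU and 91.8, 88.5 and 70.8 CPM in AX-MSU, a log2FC of 1.1 ± 0.11 (SE, edgeR FDR = 2.74e-08). EXT4, an extensin of the cell wall, had 114, 74.7 and 128 CPM against 23.1, 54.1 and 32.1 CPM, and 12.5% of its windows occur elsewhere. ERD10, a dehydrin that protects membranes and proteins in drying or cold cells, had 62.1, 70.8 and 56.9 CPM in HO-MSU and 19.3, 20.9 and 22.1 CPM in AX-MSU, a log2FC of 1.61 ± 0.13 (SE, edgeR FDR = 1.18e-09). COR47, the dehydrin gene near it on chromosome 1, had 101, 109.9 and 85.1 CPM against 52.8, 48.5 and 50.8 CPM. GRP-3, EXT4 and ERD10 were taken from DEGs without overlap. At COR47 the groups did not overlap either, and all HO-MSU libraries lay above all AX-MSU libraries at 12.3% of the nuclear genes tested. Of 14 tested genes of cold, dehydration and abscisic acid 5 passed the FDR upward (ERD10, COR47, ERD14, RD29A and COR414-TM1), and RAB18, a dehydrin tied to abscisic acid, fell from 6.8, 7.94 and 7.33 CPM to 2.57, 3.12 and 1.89 CPM. The median of the list was 0.19, and COR15A and KIN2 had a log2FC of 0.19 and 0.21 and did not pass the test. Over all nuclear genes tested, 3.3% passed the FDR upward and 3.33% downward.

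CYP81D11 had the most negative log2FC among the lower DEGs without overlap. It is a cytochrome P450 induced by reactive chemicals through TGA factors, lies on chromosome 3 at 10788698 to 10790553 (minus strand), and had 3.36, 2.23 and 2.11 CPM in HO-MSU and 16.5, 21.9 and 21.4 CPM in AX-MSU, a log2FC of -2.95 ± 0.18 (SE, edgeR FDR = 2.98e-12). Its list, detoxification of reactive chemicals, went in both directions. GSTF2, GSTF6, GSTF7 and CYP81D8 rose, OPR1 and UGT74E2 also fell, and the median of the 11 tested was 0.85. The window before CYP81D11 (same source and orientation as above) is shown because it holds 1 copy of the as-1 type core that TGA factors bind, in capitals.
CYP81D11, chr3:10790554-10790803: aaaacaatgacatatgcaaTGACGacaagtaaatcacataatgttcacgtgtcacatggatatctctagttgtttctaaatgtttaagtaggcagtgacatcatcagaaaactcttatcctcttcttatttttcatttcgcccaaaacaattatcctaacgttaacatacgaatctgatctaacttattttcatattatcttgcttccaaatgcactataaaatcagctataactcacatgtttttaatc
AHP4, a histidine phosphotransfer protein of cytokinin signalling, had 0.183, 0.0892 and 0.226 CPM in HO-MSU and 1.37, 0.967 and 1.34 CPM in AX-MSU. The amino acid exporter relative UMAMIT33 fell from 2.21, 3.25 and 3.59 CPM to 0.244, 0.892 and 0.528 CPM. Of the 12 lower DEGs with the most negative log2FC among those without overlap 8 lost their call on leaving out some library, among them AT2G37030, EXLB1, AT1G12030, AT1G62920, UGT74E2 and AT2G06560.1, with a highest edgeR FDR of 0.0876, 0.1, 0.113, 0.1, 0.207 and 0.134 (on leaving out, in the same order, AX-MSU 3, HO-MSU 2, HO-MSU 2, HO-MSU 1, HO-MSU 2 and AX-MSU 1).

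The 5 most abundant lower DEGs without overlap were AT1G62510, PDF1, GER3, AT4G32480 and GSTU20. AT4G32480, a DUF506 protein, had 13, 13.5 and 11.8 CPM in HO-MSU and 43.7, 41.2 and 34.7 CPM in AX-MSU, a log2FC of -1.64 ± 0.11 (SE, edgeR FDR = 3.54e-11). AT1G62510, a lipid-transfer-like protein, had 56.6, 53.5 and 50.9 CPM against 114, 133 and 115 CPM. PDF1, a protein of the epidermal cell layer, had 36.7, 38.8 and 33.3 CPM against 49.3, 104 and 104 CPM, so that AX-MSU replicate 1 was nearer to the HO-MSU libraries than to its own group. The same library was low in lipid-transfer-like genes of chromosome 4 that were chosen after their values were seen. AT4G22485 had 34.2, 318 and 429 CPM in AX-MSU and 101, 48.4 and 19.4 CPM in HO-MSU, and AT4G22490 and AT4G22505 overlapped between the groups in the same way. The calls of AT4G22485, AT4G22490 and AT4G22505 were lost with DESeq2 (adjusted p = 0.191, 0.218 and 0.175) and without AX-MSU replicate 3 (edgeR FDR = 0.114, 0.148 and 0.0801).

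Several genes of sulfur assimilation fell by modest amounts. Of 10 tested members of the sulfur deficiency list 9 had a negative log2FC, 5 passed the FDR downward and 0 upward, 0 were DEGs, and the median was -0.72. Among all nuclear genes tested 50.3% had a positive log2FC and 3.33% passed the FDR downward. The 3 isoforms of APS reductase, which commits sulfate to reduction, were among the list members that passed downward. APR1 had 15.9, 19.5 and 13.3 CPM in HO-MSU and 30.5, 29.8 and 32.6 CPM in AX-MSU, a log2FC of -0.91 ± 0.12 (SE, edgeR FDR = 6.75e-06). APR2 had 39.2, 47 and 36.6 CPM against 72.3, 69.5 and 74.8 CPM, and APR3 35.1, 46.8 and 41.4 CPM against 69.2, 67.5 and 72.3 CPM. The groups did not overlap at any of the 3, and all HO-MSU libraries lay below all AX-MSU libraries at 12.6% of the nuclear genes tested. The sulfate transporter SULTR2;1 fell by 0.71 on the log2 scale, whereas the root uptake transporter SULTR1;2 had a log2FC of 0.28 and did not pass the test.

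Aliphatic glucosinolates are sulfur-rich defence compounds made from methionine. Of 16 tested genes 15 had a negative log2FC, 7 passed the FDR downward and 0 upward, 1 was a DEG, and the median was -0.48. The shares over all nuclear genes tested were 50.3% with a positive log2FC and 3.33% passing the FDR downward. GSTU20, a glutathione transferase of the pathway, had 15.1, 17.2 and 14.3 CPM in HO-MSU and 23.8, 36.4 and 36.4 CPM in AX-MSU, a log2FC of -1.04 ± 0.14 (SE, edgeR FDR = 1.35e-05). CYP79F1, the entry enzyme of the core pathway, had 19.1, 16.3 and 10.9 CPM against 23.4, 29 and 28.4 CPM. BCAT4, which begins the elongation of methionine, had 11.9, 13 and 10.1 CPM against 14.1, 23.9 and 22.8 CPM (edgeR FDR = 0.00487 with all libraries and 0.0639 without AX-MSU replicate 2), and MAM1 of the same elongation fell by 0.48 on the log2 scale (edgeR FDR = 0.0148 with all libraries and 0.135 without AX-MSU replicate 2). The regulator MYB29 fell by 0.57 on the log2 scale, and MYB28 had -0.13 and did not pass the test. The summed leaf marker level was also lower in HO-MSU, between 6520 and 6854 CPM against 7631 to 7869 CPM, and its part in these values was not tested.

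Flavonoid and anthocyanin genes had 4 falls and 0 rises at the FDR among 11 tested and a median of -0.56. Over all nuclear genes tested, 3.33% passed the FDR downward and 3.3% upward. CHS, the first enzyme of the pathway, had 46.6, 39.7 and 39.8 CPM in HO-MSU and 69.1, 57.2 and 65.2 CPM in AX-MSU, a log2FC of -0.60 ± 0.11 (SE, edgeR FDR = 0.000596). FLS1, which makes flavonols, had 4.03, 3.43 and 3.17 CPM against 6.2, 6.15 and 8.03 CPM. DFR, a step toward anthocyanins, had 1.28, 1.07 and 0.679 CPM against 2.39, 3.31 and 2.25 CPM (edgeR FDR = 0.00742 with all libraries and 0.0679 without AX-MSU replicate 2), and the repressor MYBL2 fell by 0.40 on the log2 scale (edgeR FDR = 0.0192 with all libraries and 0.109 without AX-MSU replicate 3). The window before DFR (same source and orientation) is shown as a member of the lower DEGs that holds 3 matches to ACGTG or its reverse complement CACGT, in capitals, of which a pair overlap in CACGTG.
DFR, chr5:17166033-17166282: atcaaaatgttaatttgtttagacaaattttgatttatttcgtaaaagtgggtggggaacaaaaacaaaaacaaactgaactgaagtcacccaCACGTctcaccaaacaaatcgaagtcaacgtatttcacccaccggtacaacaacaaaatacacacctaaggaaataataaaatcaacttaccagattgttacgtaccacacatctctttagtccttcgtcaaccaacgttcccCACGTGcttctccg
PAL1 and C4H, which feed all phenylpropanoids, had a log2FC of -0.02 and 0.06 and did not pass the test.

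Other mineral nutrition lists had calls in both directions. Over all nuclear genes tested, 3.3% passed the FDR upward and 3.33% downward, and 1.44% were higher DEGs. Of 12 listed genes of iron deficiency 6 could be tested, AT2G30766 and OPT3 fell, and the median was -0.42. AT2G30766 lost its call with DESeq2 (adjusted p = 0.0547) and on leaving out a library (edgeR FDR = 0.008 with all libraries and 0.11 without AX-MSU replicate 1). OPT3, which loads iron into the phloem, had 22.3, 20.9 and 19.3 CPM in HO-MSU and 35.6, 28.7 and 24.5 CPM in AX-MSU (edgeR FDR = 0.0269 with all libraries and 0.211 without AX-MSU replicate 1). Outside the list, YSL2, a transporter of metal-nicotianamine complexes, fell from 2.8, 3.11 and 2.33 CPM to 0.916, 0.58 and 0.905 CPM. AT3G25190, of the vacuolar iron transporter family, went from 1.37, 2.97 and 3.95 CPM to 0.55, 1.07 and 0.679 CPM (edgeR FDR = 0.0118 with all libraries and 0.108 without AX-MSU replicate 3). The 3 ferritins tested, which store iron, had a median of 0.56 and none passed the test. Of 10 phosphate starvation genes 1 was a DEG, the transporter PHT1;1 at 1.04, 1.34 and 0.83 CPM against 0.119, 0.207 and 0.0705 CPM, and 42.5% of its windows occur elsewhere. SQD1, of sulfolipid synthesis, rose by a log2FC of 0.41 (edgeR FDR = 0.0149 with all libraries and 0.136 without AX-MSU replicate 2). The nitrate list had 3 rises and 2 falls at the FDR among 13 tested. The nitrate reductase NIA1 had 76.7 ± 5.91 CPM in HO-MSU and 57.1 ± 1.8 CPM in AX-MSU, and LBD37, a repressor of nitrogen responses, 50.6 ± 1.48 and 71.1 ± 4.62 CPM (SD, n = 3 each).

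**Figure D4:**
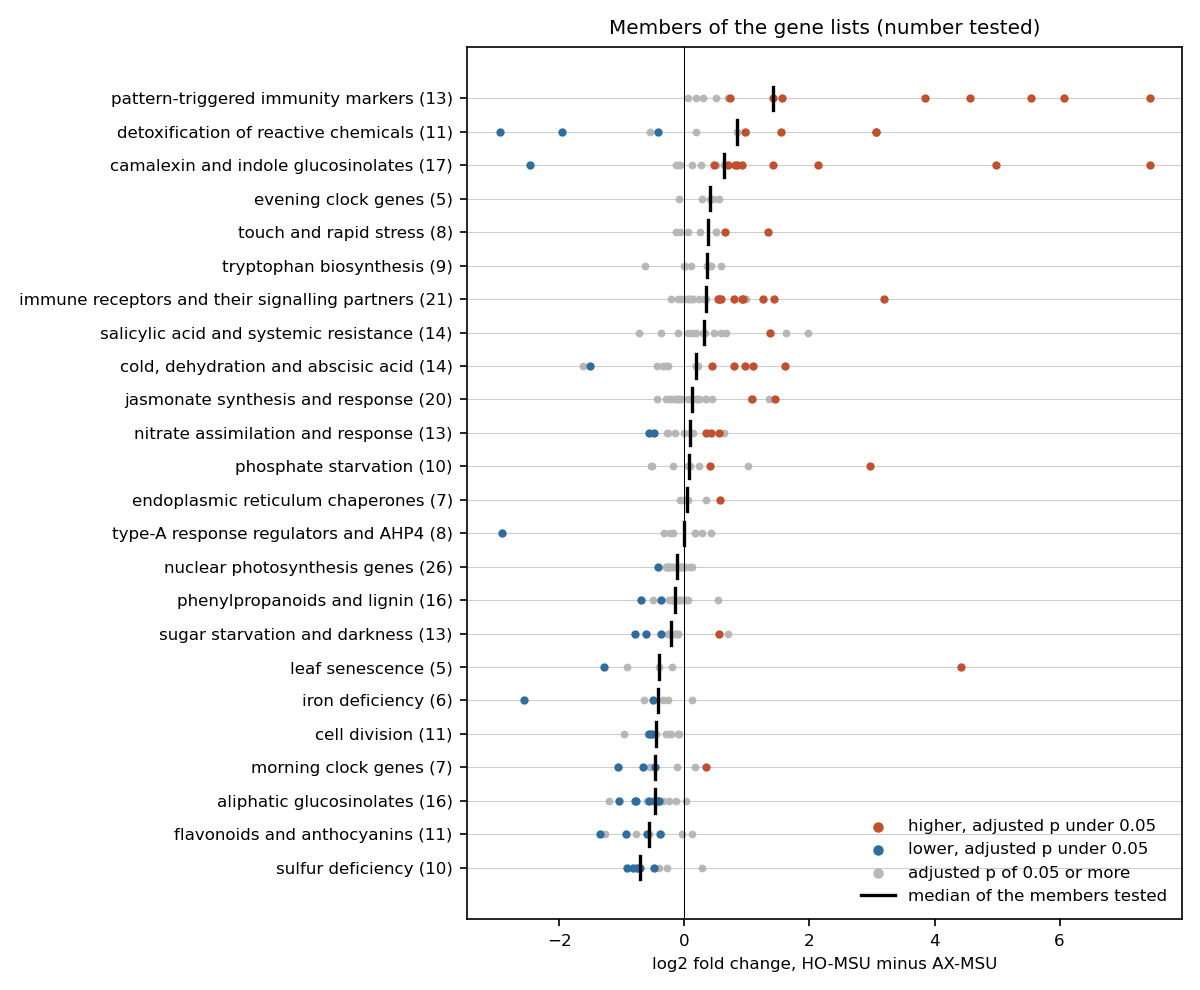
Each point is the log2 fold change, HO-MSU minus AX-MSU, of a tested member of the gene list named at the left, with a bar at the median of the list. PTI markers have a median of 1.42 and sulfur deficiency genes one of -0.72.

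Genes of growth and of the basal leaf programme moved by small amounts. Of 281 nuclear-encoded ribosomal proteins, plastid ones included, 209 had a negative log2FC, 19 passed the FDR downward and 0 upward, and the median was -0.17. Over all nuclear genes tested, 50.3% had a positive log2FC and 3.33% passed the FDR downward. RPL12-C, a plastid ribosomal protein, had 114, 118 and 116 CPM in HO-MSU and 152, 174 and 163 CPM in AX-MSU, and 24.7% of its windows occur elsewhere. Histones had 4 falls and 0 rises at the FDR among 40 tested, and cell division genes 2 and 0 among 11. Each of these calls was lost without some library. The highest edgeR FDR of the histone genes AT1G09200 and HTA6 was 0.274 and 0.426 without AX-MSU replicate 3, that of AT4G40030 0.159 without AX-MSU replicate 2 and that of AT5G65360 0.1 without HO-MSU replicate 2. That of the ribonucleotide reductase gene TSO2 was 0.164 without AX-MSU replicate 3 and that of the cyclin CYCD3;1 0.155 without HO-MSU replicate 3. AT1G09200 and HTA6 were also lost with DESeq2 (adjusted p = 0.0664 and 0.0634). Of 26 aquaporins 6 fell and 0 rose at the FDR, NIP6;1 (edgeR FDR = 0.00808 with all libraries and 0.13 without AX-MSU replicate 2) and PIP1;4 (edgeR FDR = 0.00422 with all libraries and 0.057 without HO-MSU replicate 3) among them. PIP3, a plasma membrane aquaporin, had 52.8, 51.5 and 50.001 CPM against 66.7, 87.4 and 85.3 CPM, and PIP1C had 50.2, 48.4 and 52.3 CPM against 60.5, 80.5 and 82.4 CPM. Of 26 nuclear photosynthesis genes 1 passed the FDR, PSAD1 with a log2FC of -0.42 (edgeR FDR = 0.00981 with all libraries and 0.0832 without AX-MSU replicate 2), and the median was -0.12. Medians of this size are near the shift of -0.17 that total count scaling gave to all genes. Relative to the median of all nuclear genes in the same setting, the ribosomal protein median was -0.17 with RLE, total count and DESeq2 scaling. That of the photosynthesis genes was -0.12, -0.13 and -0.12 in the same order.

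Morning and evening clock genes had medians of opposite sign. RVE1, a morning factor that also acts on auxin, had 6.17, 5.8 and 5.35 CPM in HO-MSU and 12.5, 11.9 and 11.7 CPM in AX-MSU, a log2FC of -1.06 ± 0.14 (SE, edgeR FDR = 1.1e-05). LHY, of the core clock, had 18.5, 21.2 and 20.6 CPM against 34.6, 28.4 and 32.6 CPM, and its partner CCA1 fell by 0.47 on the log2 scale. PRR7 of the same list rose by a log2FC of 0.34 (edgeR FDR = 0.0286 with all libraries and 0.18 without HO-MSU replicate 3). The 7 morning genes had a median of -0.47, with 3 falls and 1 rise at the FDR. The 5 evening genes tested had a median of 0.40, and none passed the test. The time of day of the harvest is not given in the sources used here, and its part in these values was not tested. Of 13 genes of sugar starvation and darkness 3 fell and 1 rose at the FDR. Beside the clock and sugar lists, 3.33% of all nuclear genes tested passed the FDR downward and 3.3% upward. The sugar transporter STP1 fell by 0.38 on the log2 scale (edgeR FDR = 0.0162 with all libraries and 0.124 without HO-MSU replicate 2). DIN6, an asparagine synthetase induced in darkness, had 92.4, 87.5 and 86.5 CPM against 135, 129.8 and 143 CPM.

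Whether the change with live slurry differed between the soils was tested with an interaction term. It passed an FDR of 0.05 at 49 of the nuclear genes (0.283%), 8 of them higher and 3 of them lower DEGs of the MSU comparison. Of the tested PTI markers 0 passed it, and with Malaka slurry FRK1 had a log2FC of 8.82, IOS1 of 4.14 and FOX1 of 8.45. Over all 250 higher DEGs of the MSU comparison the median log2FC was 2.02, and 1.58 for the same genes in Malaka soil. These genes were selected by their MSU values, which raises the MSU median, so these medians do not show a difference between the soils. The Malaka comparison had 220 higher (1.27%) and 62 lower (0.358%) DEGs. ERD7, a protein induced early in drying and chosen after its values were seen, had 4.35, 2.62 and 4.02 CPM in AX-MSU and 33.9, 29.1 and 25.3 CPM in HO-MSU, a log2FC of 3.0 ± 0.19 (SE, edgeR FDR = 5.9e-12). In Malaka soil it had 6.95 ± 1 CPM in AX and 12.2 ± 4.01 CPM in HO plants (SD, n = 3 each), a log2FC of 0.77 (interaction edgeR FDR = 3.33e-05). ERD10 had 30.8 ± 1.89 CPM in AX-Malaka and 34.9 ± 8.94 CPM in HO-Malaka (interaction edgeR FDR = 5.76e-05), and COR47 58.5 ± 2.92 and 60.6 ± 2.37 CPM (interaction edgeR FDR = 0.000545). These 3 genes of dehydration thus rose more with MSU than with Malaka slurry. At all 3 the AX-MSU libraries also lay below the AX-Malaka mean, so the AX levels differed between the soils as well.

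The AX groups stood apart at DIN1 and MYB44 too. DIN1, induced in darkness, had a mean of 60.2 ± 10.01 CPM in AX-MSU and 25.9 ± 2.58 CPM in AX-Malaka, while the HO means were 34.9 ± 1.87 and 34.1 ± 6.71 CPM (interaction edgeR FDR = 0.000449). MYB44, a factor of stress and abscisic acid responses, had 22.7 ± 3.05 CPM in AX-MSU, 41 ± 5.36 CPM in AX-Malaka, and 35.8 ± 1.83 and 31.7 ± 3.56 CPM in the HO groups (interaction edgeR FDR = 0.000617). By contrast, APR1 had close AX means of 31 ± 1.45 and 30.3 ± 4.67 CPM, and HO means of 16.3 ± 3.14 CPM with MSU and 28.3 ± 1.98 CPM with Malaka slurry (interaction edgeR FDR = 0.039). The median log2FC in Malaka soil was -0.18 for the sulfur list and -0.09 for the aliphatic glucosinolate list. The interaction passed the FDR at 2 of 10 tested sulfur genes and at 0 of 16 aliphatic glucosinolate genes. For the latter list a difference between the soils was thus not shown.

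**Figure D5:**
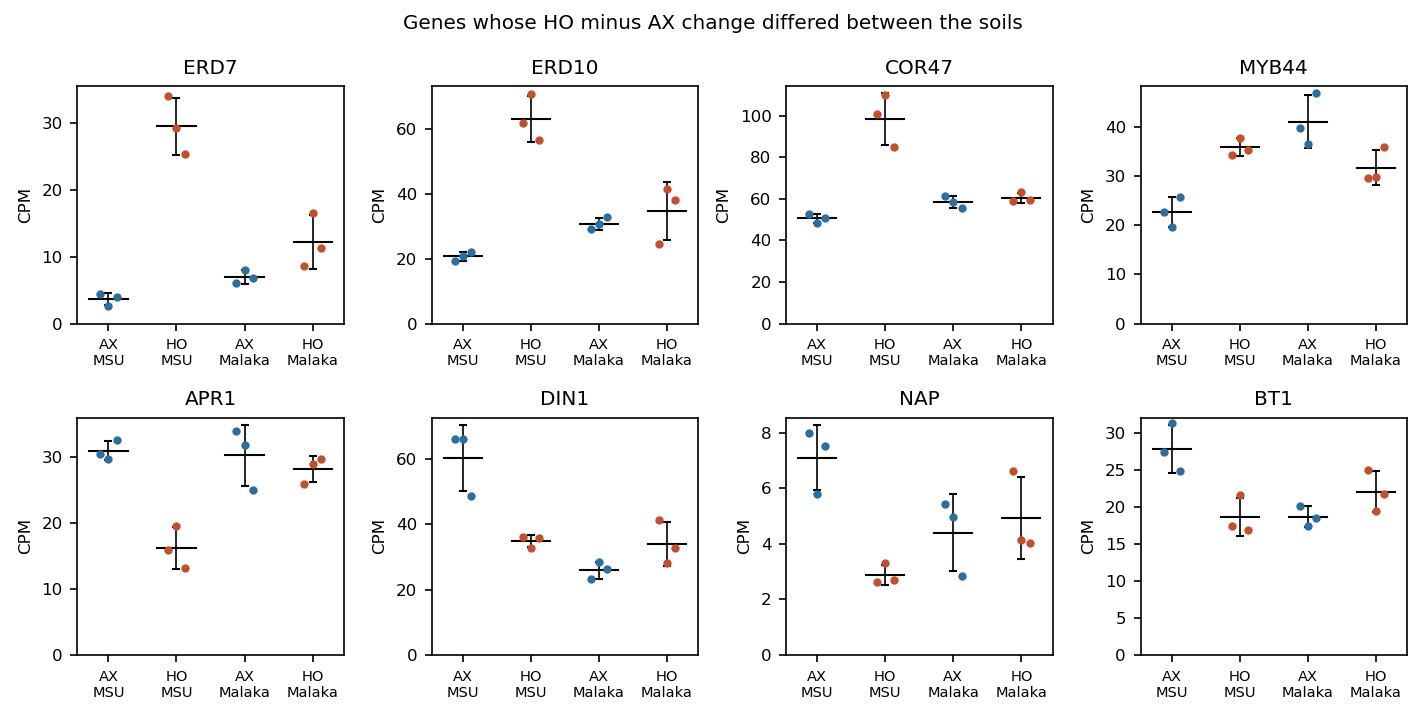
Points are CPM in single libraries of the 4 groups for genes whose change from AX to HO was compared between MSU and Malaka soil, with the mean and SD of 3 libraries. ERD7 has means of 3.66 and 29.5 CPM in AX-MSU and HO-MSU.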

How the data were processed

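RNA was taken from whole rosettes, and stranded libraries were sequenced. The authors trimmed reads with Trimmomatic 0.39, aligned them with STAR and counted them per gene with featureCounts, per the labels and the submitters' processing notes. The deposited table holds raw counts of 33610 genes in 12 libraries, 33327 of them nuclear. The strand and multiple-mapping settings of counting are not given in the sources used here. From these counts, genes with low counts were removed with filterByExpr of edgeR 4.0.16 in R 4.3.3 (minimum count 10, minimum total 15, group size 3), which left 17588 genes, 17313 of them nuclear and not ribosomal RNA. Libraries were scaled by TMM and fitted with the quasi-likelihood model of edgeR over 4 groups of 3, and p-values were adjusted (Benjamini-Hochberg) over all genes tested. The fit was tested on simulated data. DESeq2 1.42.0 was an alternative, as were other scalings, filters, a replicate block and leaving out each MSU library.

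Total counts were between 10211008 and 22710086 per library. Intervals and floors cover counting error only. The members and gene lists were chosen with earlier results of these data known. Named genes were DEGs without overlap between groups, taking 12 per direction by log2FC and 5 per direction by mean CPM, up to 4 members of each list or family with the smallest p, and FRK1, PR1 and FLS2. Other members of the lists are named to describe a count, and genes outside this rule were chosen after their values were seen. Promoters were read from the RefSeq annotation of TAIR10.1.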

Additional observations from a re-analysis of the deposited data

Results flagged for a closer look

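At 18 of the genes named, the change from AX to HO differed between MSU and Malaka soil by the interaction term of the edgeR fit at an FDR of 0.05. Groups of 3 libraries are too small for a test of single outlying libraries, and none was made. Genes of dehydration were among those that rose more with MSU slurry. ERD7, ERD10 and COR47 had a log2FC of 3.0, 1.61 and 0.96 with MSU and 0.77, 0.17 and 0.05 with Malaka slurry. AT1G11960, of the early dehydration family, and AT1G56660 had 2.05 and 2.43 against 0.74 and 0.97. ERD7 and AT1G11960 were chosen after their values were seen. In the list of cold, dehydration and abscisic acid the interaction passed the FDR at 2 of 14 tested genes. The receptor partner SOBIR1 had a log2FC of 1.25 with MSU and 0.40 with Malaka slurry, and the legume lectin gene AT3G16530 had 1.04 and 2.51.

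At other genes the estimates had opposite signs in the soils. MYB44, AT3G19680 and AT2G27080 had a log2FC of 0.66, 1.14 and 1.36 with MSU and -0.36, -0.76 and -0.42 with Malaka slurry. DIN1, the senescence factor NAP, BT1 and NAC083 had -0.79, -1.29, -0.57 and -0.40 with MSU and 0.40, 0.16, 0.25 and 0.28 with Malaka slurry. The AP2/ERF gene AT1G75490 had -1.04 and 1.05, and the glycine-rich protein gene AT2G05510 -3.65 and 2.81, where the MSU groups overlapped and the MSU call was lost without AX-MSU replicate 2 (edgeR FDR = 0.279). Of the sulfur list APR1 had -0.91 with MSU and -0.11 with Malaka slurry, and SHM7 -0.49 and 0.09. The interaction edgeR FDR was between 8.6e-06 (AT3G19680) and 0.0484 (AT2G05510).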

How the results depend on the processing

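The count of higher DEGs was 250 with TMM and with RLE scaling, 183 with total counts, 293 without a filter, 244 with DESeq2 and 93 with the fold threshold tested inside the model. The count of lower DEGs was 62, 62, 113, 78, 56 and 2 under the same settings. Without a filter the lowest adjusted p of the named genes was 4.8e-103, against 2.98e-12 in the reported edgeR fit and 1.46e-43 with DESeq2, and the cause was not tested. DESeq2 shared 242 of the higher and 53 of the lower DEGs. Leaving out each MSU library in turn gave between 202 and 259 higher and between 33 and 81 lower DEGs. Of the DEGs named by the rule, 8 of 76 higher and 12 of 24 lower ones lost an FDR under 0.05 without some library, and the 12 largest rises lost 0. No log2FC of a named gene that was called changed its sign under these alternatives. Low counts limit the largest fold changes, since 3 counts in a library stood for 0.134 to 0.226 CPM.

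Replicate numbers were shared by the groups, and deviations of same-numbered HO-MSU and AX-MSU libraries correlated at -0.029, 0.029 and -0.014, so the numbers were not taken as pairs. With a replicate block in the 6 MSU libraries the counts were 243 higher and 66 lower, and with a replicate block within soil over 12 libraries 253 and 68.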
